A study of Mus musculus with 6 samples.

Results

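The trophectoderm regulators are 8 genes of transcription factors, Tead4, Cdx2, Gata3, Elf5, Tfap2c, Tfap2a, Esx1 and Hand1, that act in the outer cells of the blastocyst and in the placental cells that follow from them. They were taken as all probes of these gene names on the array, not by their measured values. Earlier results of these data were known when the set was chosen. The regulators gave 8 of 28786 names on the array. They are measured by 9 of 41174 probes, since Tfap2a has 2. The array's own name column lists 6 of them under these symbols, and Tfap2c and Tfap2a stand there under the older names Tcfap2c and Tcfap2a and were joined through their RefSeq accessions. Of the 8 genes, 7 were well above background throughout the arrays of 1 cell type or both and entered the test. Hand1 did not.

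The study hybridised RNA of 3 cultures of mouse embryonic stem cells (mES) and 3 of epiblast stem cells (EpiSC) to 6 one-colour Agilent arrays, 3 per cell type. mES replicate 1 was line ESF122, replicate 2 was ESF175/1, and replicate 3 is called ESF58/2 in its title and ESF58/1 in its source name. EpiSC replicate 1 was line EpiSC-5, and replicates 2 and 3 were line EpiSC-7 at passages 20 and 25, so the EpiSC group held 2 lines. Both cell types grew on irradiated mouse embryonic fibroblasts in DMEM with KSR serum replacement, BME, non-essential amino acids and L-glutamine. mES medium also held LIF and EpiSC medium FGF2. Only line and passage mark cultures as separate in the labels, so the p-values speak of the spread among these 6 arrays. Genotype, strain and sex of the lines are not given in the sources used here. Each slide held 1 cell type only, so slide, growth factor and cell type cannot be told apart.

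The trophectoderm is the outer epithelium of the blastocyst and gives rise to the trophoblast of the placenta, while the inner cell mass inside it gives rise to the epiblast. In the outer cells of the mouse embryo Hippo signalling is low, the coactivator YAP enters the nucleus, and YAP bound to TEAD4 switches on Cdx2 and Gata3. In the inner cells Hippo kinases and angiomotin keep YAP out of the nucleus. ES cells come from the inner cell mass and EpiSCs from the epiblast after implantation, so neither is a trophoblast line.

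The promoters of 4 of the regulators are shown, those of the genes with the largest measured differences in either direction (Esx1, Gata3) and of the best known trophoblast stem cell pair (Cdx2, Elf5), because members of the set are known to act on one another. RefSeq (GRCm38.p6) windows of 250 bases before to 50 bases after the start were at hand for 5 of the 8 genes, 7 windows in all. Capitals mark matches on either strand. The letters searched for AP-2 factors were GCCNNNGGC, which read the same on both strands and count once. TEAD factors were searched as GGAATG, and the letters for GATA factors were AGATAA. Ets factors were searched as GGAAGT, and those of the caudal family as TTTATG. None of the matches to these 5 overlap. The windows, each printed along its gene, are Esx1 at chrX:137120277-137120576 (minus strand), Gata3 at chr2:9878551-9878850 (minus strand), Cdx2 at chr5:147307200-147307499 (minus strand) and the upstream of the 2 Elf5 starts at chr2:103411848-103412147 (plus strand).
Esx1: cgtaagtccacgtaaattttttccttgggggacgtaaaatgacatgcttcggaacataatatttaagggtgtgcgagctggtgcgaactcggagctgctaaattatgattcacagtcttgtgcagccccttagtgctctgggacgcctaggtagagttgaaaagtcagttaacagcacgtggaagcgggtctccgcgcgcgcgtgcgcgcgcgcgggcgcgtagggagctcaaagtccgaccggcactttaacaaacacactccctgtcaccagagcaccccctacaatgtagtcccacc
Gata3: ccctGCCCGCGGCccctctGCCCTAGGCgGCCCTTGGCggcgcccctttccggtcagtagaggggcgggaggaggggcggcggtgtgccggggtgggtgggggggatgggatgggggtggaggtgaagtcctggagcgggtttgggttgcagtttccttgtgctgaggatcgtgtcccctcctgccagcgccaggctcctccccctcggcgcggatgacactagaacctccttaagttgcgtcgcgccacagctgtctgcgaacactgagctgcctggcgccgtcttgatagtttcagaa
Cdx2: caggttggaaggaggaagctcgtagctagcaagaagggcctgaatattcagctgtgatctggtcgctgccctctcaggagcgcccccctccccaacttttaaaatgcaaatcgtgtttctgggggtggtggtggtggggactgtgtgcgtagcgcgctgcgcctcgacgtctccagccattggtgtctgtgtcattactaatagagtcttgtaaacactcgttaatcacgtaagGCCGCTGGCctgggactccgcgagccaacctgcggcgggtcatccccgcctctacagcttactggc
Elf5: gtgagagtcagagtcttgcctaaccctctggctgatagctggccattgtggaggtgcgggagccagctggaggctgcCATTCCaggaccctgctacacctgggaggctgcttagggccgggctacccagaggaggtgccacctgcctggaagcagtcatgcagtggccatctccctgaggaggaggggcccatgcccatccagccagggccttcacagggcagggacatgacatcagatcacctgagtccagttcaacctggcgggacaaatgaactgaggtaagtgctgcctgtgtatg
The Gata3 window held 3 AP-2 matches and the Cdx2 window 1, letters found in 16.6% of all 32851 windows of this length. The upstream Elf5 window held 1 TEAD match (letters in 14.7% of windows), and the downstream one and 1 of the 2 Tfap2a windows held 1 caudal match each (11.9%). None of the 7 windows held the GATA letters (11.2%) or the Ets letters (23.8%), and the Esx1 window held none of the 5. Of 3 further motifs searched, the E-box CANNTG (72.3% of windows) occurred in the 4 windows shown, 1 match each in Esx1, Gata3 and Cdx2 and 5 in Elf5. The octamer ATGCAAAT (1.74%) occurred once, in Cdx2, and the Krueppel-like GGGTGTGG (3.56%) in none of the 7. The Esx1, Gata3 and Cdx2 windows held 24, 22 and 18 CpG dinucleotides against a median of 7 over all windows. The Tfap2a windows held 15 and 11, the downstream Elf5 window 10 and the upstream Elf5 window 3. A match describes letters and is not a measured site.

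All values below are the processed signal of a spot on its linear scale, and fold changes are on the log2 scale after subtracting each array's 75th percentile, EpiSC minus mES, with the standard error of limma's fit and 3 arrays per group. A call is an adjusted p under 0.05 over 20689 genes. Over these genes 26.3% were called, 14.5% lower and 11.8% higher in EpiSC, and for 48.5% the scaled values of the groups did not overlap. Of the 7 regulators tested, 3 were lower in EpiSC (Esx1, Tfap2c and Tead4), 0 were higher in limma's test (1 at an unadjusted p under 0.05, Gata3), and 4 did not pass. The scaled values did not overlap for 4 of the 7, the same 3 and Gata3. Their median log2 fold change was -0.02, against -0.11 over all genes. Tested probe by probe, 3 of the 7 regulator probes that entered were called, against 26.1% of 29552 probes.

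**Figure D1:**
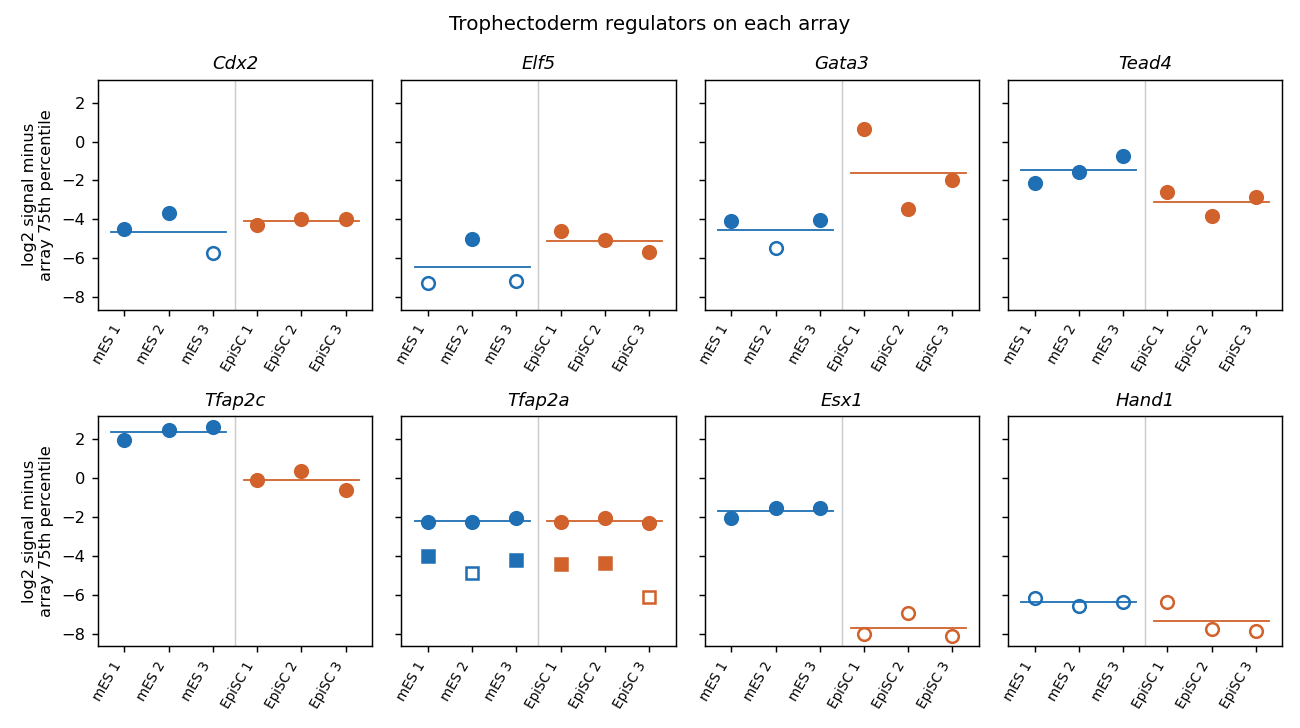
The 8 regulators on each array, as log2 signal minus the array's 75th percentile (vertical axis), for mES (blue) and EpiSC (orange) replicates 1 to 3. Filled symbols are well above background and open ones are not, lines are group means, and squares show the dimmer Tfap2a probe. Tfap2c, Esx1 and Tead4 have all EpiSC arrays below all mES arrays, and Gata3 has all EpiSC arrays above. Hand1 is open on all 6, and levels are not compared between panels.

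Tead4, the TEAD factor that the mouse embryo needs to form a trophectoderm, was 3.05-fold lower in EpiSC. Its signals were 139, 229 and 354 on mES replicates 1 to 3 and 154, 46.6 and 109 on EpiSC replicates 1 to 3. The raw signals of the groups overlapped, since EpiSC replicate 1 lay above mES replicate 1. After scaling for the brighter EpiSC array, all EpiSC values (-3.82 to -2.61) lay below all mES values (-2.13 to -0.76). The log2 fold change was -1.61 ± 0.45 (95% interval -2.70 to -0.52, limma adjusted p = 0.043), close to the threshold, and with mES replicate 2 and EpiSC replicate 3 left out it was -1.77 (adjusted p = 0.16). It stayed past the threshold in 10 of 21 alternative settings. Among the 6 fits with 1 array left out, only that without mES replicate 1 passed (-1.94, adjusted p = 0.0407), and the values ran from -1.94 to -1.25. Because bulk RNA was measured here and for every gene below, fewer cells of a type and less RNA per cell cannot be told apart.

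Of the 3 other TEAD genes 1 was higher in EpiSC and 0 lower (limma, 0 lower at an unadjusted p under 0.05). Tead2 rose, with signals of 2360, 2960 and 2010 in mES and 10900, 5850 and 9440 in EpiSC. The fit gave 1.48 ± 0.20 (limma adjusted p = 0.0043), its other probe gave 1.36 (adjusted p = 0.00751 over probes), and it passed in 21 of 21 settings. Tead1, listed on the array under an older clone name, had signals of 2740 to 3840 over the 6 arrays and a log2 fold change of -0.38 (95% interval -0.83 to 0.07, adjusted p = 0.176). Tead3 was dim (28.4 to 97.6) and gave 0.17 (-0.68 to 1.03, adjusted p = 0.739).

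Of 17 genes of the Hippo pathway and TEAD partners, 16 were tested, 4 were higher in EpiSC and 1 lower, with a median log2 fold change of 0.48. Amot, the angiomotin gene whose protein holds YAP at cell junctions, had signals of 375, 340 and 225 in mES and 106000, 10800 and 30800 in EpiSC. Every EpiSC array was far above every mES array, and the log2 fold change was 6.42 ± 0.67 (adjusted p = 0.0019), past the threshold in 21 of 21 settings. Only 1 of the 3 Amot probes on the array entered the test, so the settings do not show whether its probes agree. The Amot relative Amotl1 rose by 1.5 ± 0.28 (adjusted p = 0.0127), while a second Amotl1 probe gave -0.60 (adjusted p = 0.0797 over probes). Vgll4, which competes with YAP for TEAD, rose by 3.22 ± 0.43 (adjusted p = 0.00417) from signals of 6.67 to 21.8 in mES, above background on 1 of 3 arrays, to 102 to 176. With normexp background correction its value was 1.34, and without mES replicate 2 and EpiSC replicate 3 it did not pass (adjusted p = 0.0542). Sav1, the scaffold of the Hippo kinases, was the other higher gene at 0.74 ± 0.19 (adjusted p = 0.0312), while its other probe gave -0.12, and with 1 array left out it passed only without EpiSC replicate 1 (adjusted p = 0.0372). Vgll1, a TEAD cofactor known from human trophoblast, was the lower one at -0.65 ± 0.17 (adjusted p = 0.0375). It passed in 9 of 21 settings and, with 1 array left out, only without mES replicate 3 (adjusted p = 0.0305). The coactivator Yap1 itself gave 0.47 (95% interval -0.09 to 1.02, adjusted p = 0.177) and its paralogue Wwtr1 0.42 (-0.34 to 1.18, adjusted p = 0.349).

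**Figure D2:**
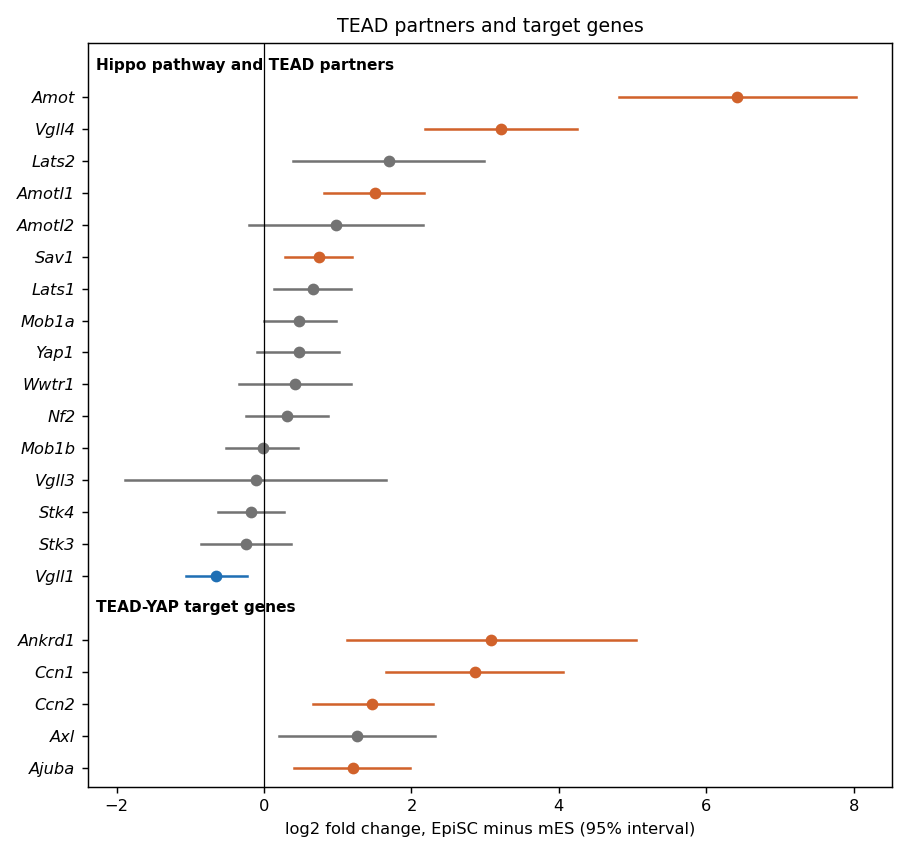
Log2 fold change (horizontal axis, EpiSC minus mES) with its 95% interval for the 16 tested Hippo pathway and TEAD partner genes and the 5 TEAD-YAP target genes; orange points passed the threshold upward, blue downward, grey did not. Amot stands at 6.42, and 4 of the 5 target genes passed, all above 0.

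Of 5 genes commonly used to read out YAP and TEAD activity, 4 were higher in EpiSC and 0 lower (limma, also 0 lower at an unadjusted p under 0.05), with a median of 1.47. Ccn1 had signals of 1310, 892 and 2510 in mES and 23600, 6880 and 13700 in EpiSC (log2 fold change 2.86 ± 0.50, adjusted p = 0.00964). Ankrd1 rose by 3.08 ± 0.82 (adjusted p = 0.0363), Ccn2 by 1.47 ± 0.34 (adjusted p = 0.0237) and Ajuba by 1.20 ± 0.33 (adjusted p = 0.0402). Ankrd1 was dim in mES (14.8, 23.6 and 43.5), above background on 2 of 3 arrays. With normexp background correction it gave 1.81 and did not pass (limma adjusted p = 0.0706). Axl gave 1.26 (95% interval 0.20 to 2.32, adjusted p = 0.0796). With 1 array left out, Ccn1 passed in 6 of 6 fits, Ankrd1 and Ccn2 only without mES replicate 3 and without EpiSC replicate 2, and Ajuba only without EpiSC replicate 1, with an adjusted p of up to 0.112 in the rest. Fibroblasts also express these targets. Summed over 17 feeder fibroblast markers, the scaled level was 72.9, 19.4 and 125 on mES replicates 1 to 3 and 109, 65.4 and 27.2 on EpiSC replicates 1 to 3. Of the 18 markers listed 1 was higher in EpiSC (Acta2) and 0 lower (0 lower at an unadjusted p under 0.05). Acta2 gave 0.9 ± 0.21 (limma adjusted p = 0.0248), and its other entering probes disagreed, at 3.14, 2.73 and -0.18. Without mES replicate 2 and EpiSC replicate 3, the arrays low in these markers, the 4 targets kept their direction (0.96 to 2.44) and 0 of the 4 passed (adjusted p 0.0733 to 0.196). Over all genes that smaller fit called 830 higher and 718 lower, against 2441 and 2995 with all 6 arrays. A part of the feeder cells in these differences was not tested.

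Cdx2, the caudal homeobox factor of the trophectoderm and a direct target of TEAD4, was dim in both cell types. Its signals were 27.4, 52.7 and 11 in mES and 47.7, 42.0 and 48.8 in EpiSC. The groups overlapped, with mES replicate 2 the highest array and mES replicate 3 the lowest and not above background. The spread was 1.05 (SD, log2) in mES and 0.17 in EpiSC. The log2 fold change was 0.55 ± 0.50 (95% interval -0.66 to 1.76, adjusted p = 0.444), it passed in 0 of 20 settings, and without mES replicate 3 it was -0.01. Its relatives Cdx1 and Cdx4 did not enter, with signals of 3.27 to 33.2 (above background on 1 of 6 arrays) and 2.58 to 3.94 (0 of 6).

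Gata3, a zinc finger factor that acts beside Cdx2 downstream of TEAD4, had the widest spread of the 7 tested regulators among the EpiSC arrays. Its signals were 36.3, 15.1 and 36.3 in mES and 1450, 58.3 and 197 in EpiSC. After scaling, the lowest EpiSC array (-3.50) lay above the highest mES array (-4.05), so the groups did not overlap. The log2 fold change was 2.91 ± 1.03 (95% interval 0.44 to 5.38), and its adjusted p of 0.0809 did not pass. In mES the gene was dim and above background on 2 of 3 arrays. With normexp background correction the log2 fold change was 1.75 (limma adjusted p = 0.143). The SD was 2.09 in EpiSC. EpiSC-5 was 17.5-fold above EpiSC-7 at passage 20 and 6.18-fold above EpiSC-7 at passage 25, and the 2 passages of EpiSC-7 differed 2.83-fold. Of 20276 genes above background on EpiSC replicates 1 and 2, 0.0741% were as far apart between them as Gata3. Without EpiSC replicate 2 the difference passed (3.85, adjusted p = 0.0386), the only one of 20 settings in which it did.

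Among the other GATA genes 1 of 5 passed, Gata6, a factor of primitive endoderm and mesendoderm, and 0 were lower (0 at an unadjusted p under 0.05). Its signals were 153, 167 and 262 in mES and 10300, 861 and 2490 in EpiSC, so the EpiSC arrays stood in the same order as for Gata3. The log2 fold change was 3.57 ± 0.75 (adjusted p = 0.0175). It missed the threshold without mES replicate 1 (adjusted p = 0.0527), mES replicate 2 (0.0523) or EpiSC replicate 3 (0.0574). Another probe gave 3.88, and the remaining one, at signals of 30.8 to 83.5, gave 0.05. Gata2, which also acts in trophoblast, had signals of 33.7, 25.6 and 52.4 in mES and 40.3, 240 and 13.4 in EpiSC, with EpiSC replicate 2 apart from the rest, and a log2 fold change of 0.18 (95% interval -2.40 to 2.76). The remaining 3 gave -0.42 to -0.22, and none of them passed.

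Elf5, an Ets factor that forms a circuit with Cdx2 and Eomes in trophoblast stem cells and whose promoter is methylated in the embryonic lineage, lay near the detection limit. Its signals were 3.95, 20.9 and 4.2 in mES, above background on replicate 2 only, and 38.1, 19.7 and 15.3 in EpiSC, above background on all 3 arrays. The groups overlapped through mES replicate 2. The log2 fold change was 1.36 ± 0.64 (95% interval -0.19 to 2.91, adjusted p = 0.162). Without mES replicate 2 it was 2.09 (adjusted p = 0.0165). With signals floored at the lowest value above background on each array (11.8 to 18.2) it was 0.02, so the size of the difference rests on signals at the floor.

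Of 7 other Ets genes 1 was lower in EpiSC and 0 higher (0 at an unadjusted p under 0.05). The lower one was Elf3, an epithelial Ets factor, with signals of 374, 346 and 236 in mES and 140, 67.7 and 77.7 in EpiSC. The groups did not overlap, and the log2 fold change of -2.11 ± 0.25 (adjusted p = 0.00305) passed in 21 of 21 settings. The other 6 gave -0.46 to 0.90 and none passed.

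Tfap2c, which encodes AP-2 gamma, a factor of the trophectoderm and of primordial germ cells, was 5.58-fold lower in EpiSC. Its signals were 2440, 3800 and 3770 in mES and 869, 865 and 526 in EpiSC. The highest EpiSC array was below the lowest mES array, and all 6 were above background, so the gene was lower and still detected in EpiSC. The log2 fold change of -2.48 ± 0.31 (95% interval -3.21 to -1.74, adjusted p = 0.00328) passed in 21 of 21 settings, between -2.72 and -2.10. With mES replicate 2 and EpiSC replicate 3 left out, the pair low in feeder markers, it was -2.18 (adjusted p = 0.036).

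Tfap2a, which encodes AP-2 alpha, a factor of surface ectoderm, neural crest and trophoblast, was level between the groups by its brighter probe. The signals were 128, 144 and 143 in mES and 196, 158 and 161 in EpiSC, and after scaling they overlapped. Its log2 fold change was -0.02 ± 0.16 (adjusted p = 0.948), with its sign turned in 7 of 21 settings, and the 95% interval of -0.40 to 0.37 bounds the difference more tightly than for any other regulator tested. The dimmer probe gave signals of 38.5, 23.2 and 31.9 in mES and 44.4, 31.5 and 11.2 in EpiSC, above background on 2 of 3 arrays in each group, and did not enter. A cDNA probe that the array describes as AP-2 alpha, but does not list under the gene's name, read 3.06 to 4.82 and was above background on 0 of 6 arrays.

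None of the 3 other AP-2 genes passed in limma (1 at an unadjusted p under 0.05, Tfap2d). Tfap2b had signals of 67.0 to 108 and a log2 fold change of -0.30 (95% interval -0.86 to 0.25, adjusted p = 0.35). Tfap2d gave 1.23 (0.17 to 2.28, adjusted p = 0.0828) at signals of 9.69 to 57.5, and passed in 3 of 20 settings, with quantile scaling (adjusted p = 0.0433), without mES replicate 2 (0.03) and in the fit that treats slides as a random block (0.00522). Tfap2e gave -0.13 (-0.48 to 0.22, adjusted p = 0.532), and the sign turned with quantile scaling (0.17). The probe that stood for it read 48700 to 71100, and the other Tfap2e probe, at 7.62 to 67.7, gave a log2 fold change of -0.03. Which of the 2 probes reads the gene could not be settled here, so its level is not known.

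Esx1, an X-linked homeobox gene known from the placental labyrinth and male germ cells, was the regulator with the largest difference. Its signals were 146, 233 and 211 in mES and 3.62, 5.33 and 2.83 in EpiSC. Every mES array (3 of 3) and 0 of 3 EpiSC arrays read above background. Against the lowest signals above background on the EpiSC arrays, it was 17.8-fold lower in EpiSC (4.16 on the log2 scale). The measured log2 fold change was -5.99 ± 0.36 (adjusted p = 0.000269) and passed in 20 of 20 settings, from -6.36 to -2.10. The smallest value came with normexp background correction, which raises dim signals. It was smaller than the difference of 4.16, so that figure is no lower limit. With that pair of feeder-low arrays left out it was -5.69 (adjusted p = 0.00969).

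Hand1, a basic helix-loop-helix factor of trophoblast giant cells and of extraembryonic mesoderm, was above background on 0 of 6 arrays. Its signals were 8.54, 7.11 and 7.27 in mES and 11.2, 3.06 and 3.36 in EpiSC, below the lowest signal above background on each of these arrays, and no fold is given. Its relative Hand2 did not enter either. The brighter of the 2 Hand2 probes read 12.2 to 30.7, and 4 of 6 arrays had at least 1 of the 2 above background.

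**Figure D3:**
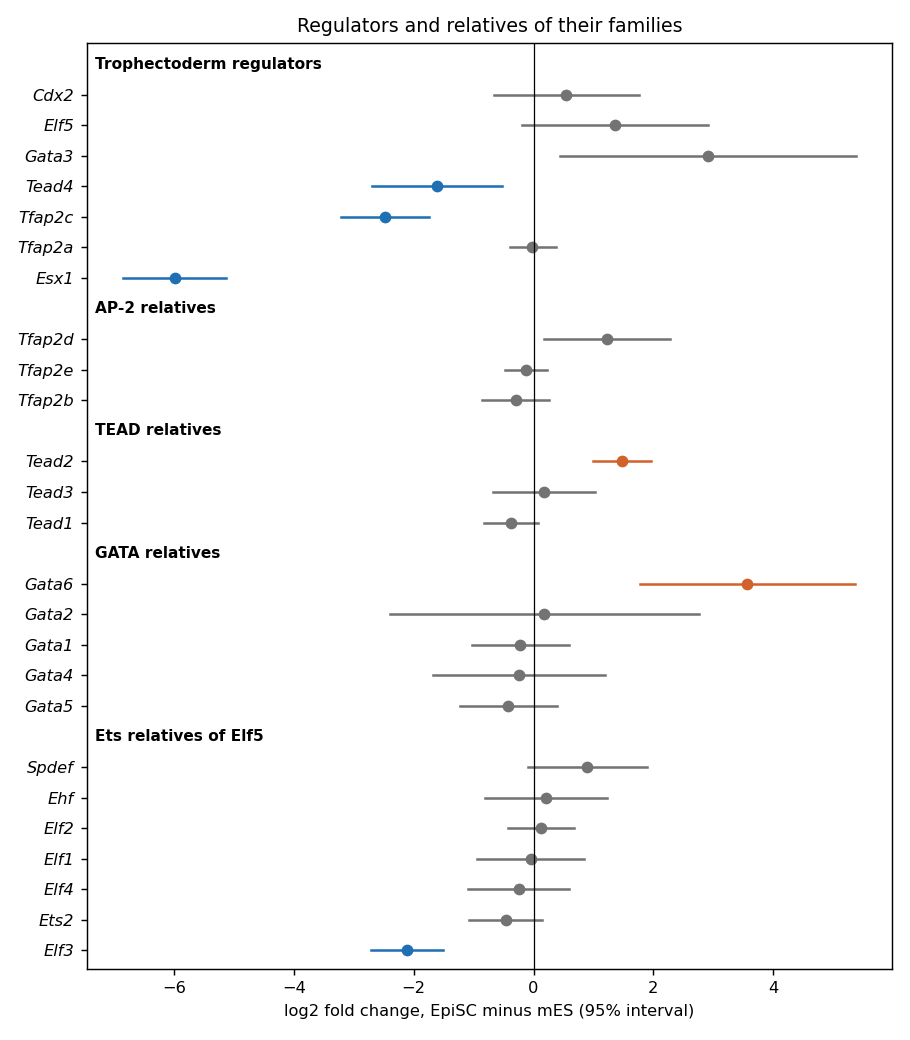
Log2 fold change (horizontal axis, EpiSC minus mES) with its 95% interval for the 7 tested regulators and the tested genes of the AP-2, TEAD, GATA and Ets families; blue points passed the threshold as lower in EpiSC, orange as higher, grey did not pass. Tead4 (-1.61) and Tead2 (1.48) lie on opposite sides of 0, and Esx1 lies at -5.99.

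On the 2 arrays at slide position 1, EpiSC replicate 3 against mES replicate 3, the log2 differences were -3.24 for Tfap2c, -2.09 for Tead4, -0.22 for Tfap2a and 2.05 for Gata3. No value is given there for Esx1, Cdx2 and Elf5, each of which was not above background on at least 1 of these arrays. With the arrays at position 4 only, Esx1 and Tfap2c passed, Tead4 did not (-1.37, adjusted p = 0.141), and Cdx2 gave -0.05. Position 1 leaves 1 array per group and so allows no test.

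Across the 6 arrays the regulators did not vary together as 1 set. Tfap2c and Esx1 were close in pattern (Pearson r = 0.99), and each stood near Tead4 (0.79 and 0.80). Gata3 ran opposite to both (-0.78 and -0.80), and Cdx2 was nearest to Elf5 (0.71). These are descriptions over 6 arrays that share the 2 cell types, which alone can set such values. The genes most like Tfap2c were Fdxr and Zbtb7a (r = 0.999 each), but 1347 genes exceeded 0.95. For Esx1 they were Pprc1 and Ncoa3 (0.999 each, 1574 genes over 0.95). For Tead4 they were Sgk1 and Cox10 (0.996 and 0.994), for Gata3 Rassf4 and Fezf2 (0.998 and 0.993), and for Elf5 Tmc2 and Nlrp3 (0.991 and 0.989). For Cdx2 they were Atp4b and Krt75 (0.988 and 0.987), and for Tfap2a Tmem106c and Ndufa12 (0.985 and 0.979).

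**Figure D4:**
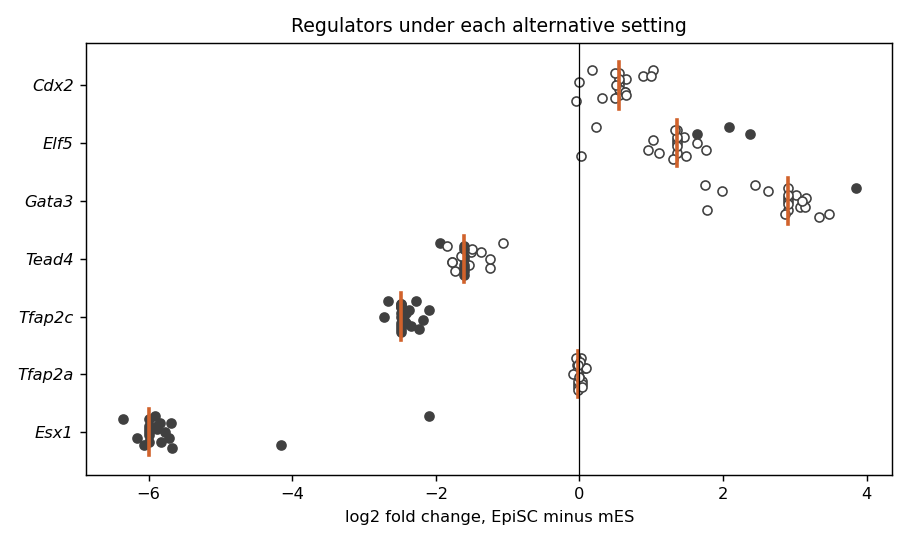
Log2 fold change (horizontal axis, EpiSC minus mES) of the 7 tested regulators under each alternative setting (circles, filled where the adjusted p is under 0.05) and as reported (orange bars). Tfap2c and Esx1 are filled throughout, Tead4 is filled in 10 of 21 settings, and Tfap2a and Cdx2 in none.

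Of 24 other genes of trophectoderm and trophoblast stem cells, 23 were tested, 7 were higher and 4 lower in EpiSC, and their median was 0.24 on the log2 scale. The higher ones were led by keratins of simple epithelia. Krt8 had signals of 815, 541 and 712 in mES and 55300, 5010 and 31200 in EpiSC (4.59 ± 0.75, adjusted p = 0.00774), and Krt18 rose by 4.21 ± 0.72 (adjusted p = 0.00913). Eomes, the T-box factor that works with Cdx2 and Elf5 in trophoblast stem cells and also acts in the primitive streak, rose from 75.7 to 85.6 in mES to 747 to 3580 in EpiSC (4.18 ± 0.49, adjusted p = 0.00277). With the feeder-low pair of arrays left out Eomes passed (3.60, adjusted p = 0.0215), and Krt8 and Krt18 did not (4.07 and 3.89, adjusted p = 0.0796 and 0.0843). Among the lower ones was Esrrb, an orphan receptor of both ES and trophoblast stem cells (-6.01 ± 0.47, adjusted p = 0.00143, with 1 mES value missing as an outlier spot). Its other probe gave -1.64, and the mean of its probes -3.04. The X-linked homeobox genes Rhox6 (-5.47 ± 0.65, adjusted p = 0.00296) and Rhox9 (-3.53 ± 0.51, adjusted p = 0.00535) of the placenta were lower beside their fellow homeobox gene Esx1. Rhox6 read 11.8, 19.6 and 12.8 in EpiSC, above background on 1 of 3 arrays, so its size rests on signals near the floor. With normexp background correction Rhox6 gave -2.86. Eomes and Esrrb also stand among the marker genes of EpiSC and ES cells.

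**Figure D5:**
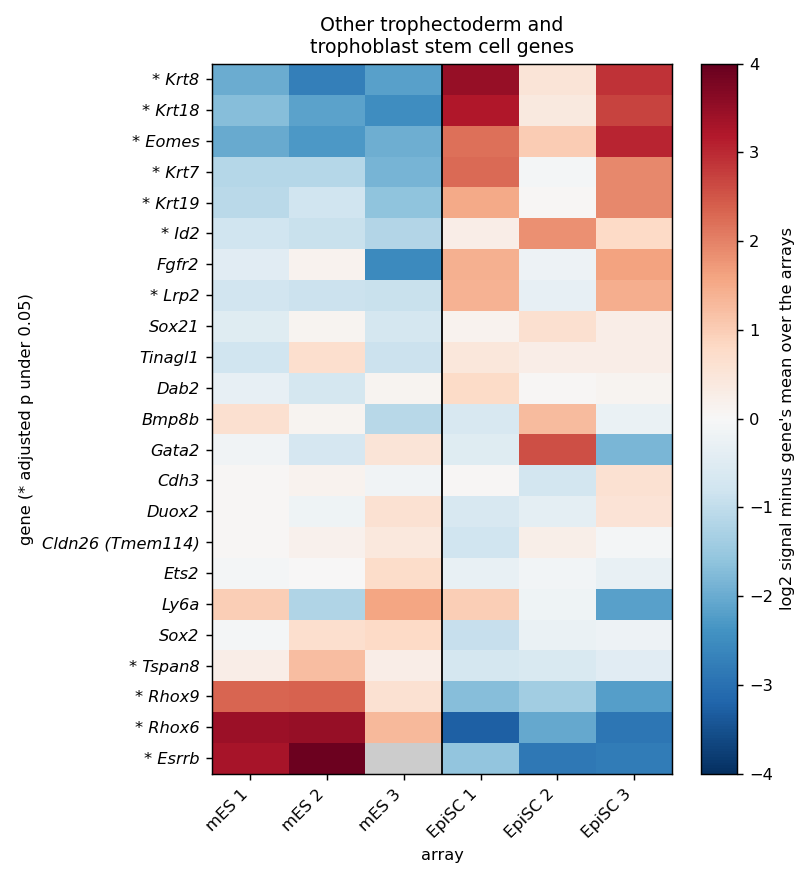
The 23 tested other trophectoderm and trophoblast stem cell genes (rows) on the 6 arrays (columns), coloured by log2 signal minus the gene's mean over the arrays; asterisks mark an adjusted p under 0.05 and grey a missing value. Krt8, Krt18 and Eomes are red on EpiSC arrays, Rhox9, Rhox6 and Esrrb on mES arrays.

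Of 23 genes of later trophoblast and placenta, 13 were tested, 3 were lower in EpiSC and 0 higher (limma, 1 higher at an unadjusted p under 0.05), with a median of -0.20. Phlda2, an imprinted gene that limits placental growth, gave -2.94 ± 0.56 (adjusted p = 0.0127), Plac8 -2.45 ± 0.66 (adjusted p = 0.0383) and Tfeb, needed for placental blood vessels, -0.91 ± 0.22 (adjusted p = 0.0285). With 1 array left out, Phlda2 passed in 6 of 6 fits (but not with position 4 only, adjusted p = 0.0757, nor without the feeder-low pair, 0.0819), Plac8 only without mES replicate 3, and Tfeb only without mES replicate 1 and without EpiSC replicate 1. Of the list, 7 genes had a probe that did not enter. Gcm1 of the labyrinth and Tpbpa of the spongiotrophoblast were each above background on 1 of 6 arrays, and Prl8a9, Dlx3, the syncytin gene Synb and the placental cathepsins Ctsq and Ctsj on 0 of 6. The placental lactogen genes Prl3d1 (signals of 92.9 to 237) and Prl3b1 (741 to 1300) were above it on all 6 arrays, and neither passed (-0.50 and 0.29).

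Several regulators have known roles in other tissues, and genes of those tissues were read beside them. Of 16 genes of extraembryonic and posterior mesoderm, where Hand1 also acts, 14 were tested, 3 were higher and 1 lower, with a median of 0.64. Fgf8 rose by 5.01 ± 0.35 (adjusted p = 0.00049) and T by 4.01 ± 0.49 (adjusted p = 0.00324). Mixl1, above background on 0 of 3 mES arrays, gave 3.55 ± 0.64 (adjusted p = 0.011). Against the lowest signals above background on those arrays it was 4.99-fold higher. With normexp background correction its log2 fold change was 1.25. Foxf1 gave -0.74 ± 0.21 (adjusted p = 0.0466) and passed in 0 of 6 fits with 1 array left out (adjusted p 0.0703 to 0.131). Of 12 genes of surface ectoderm, where Tfap2a acts, 10 were tested, 1 was higher and 3 lower, with a median of -0.30. Trp63 gave 1.7 ± 0.41 (adjusted p = 0.027), Grhl2 -3.04 ± 0.87 (adjusted p = 0.0466), Krt17 -0.87 ± 0.16 (adjusted p = 0.0117) and Krt14 -0.59 ± 0.17 (adjusted p = 0.0431). Trp63 was above background on 0 of 3 mES arrays and read 19.5 to 31.3 in EpiSC, so its size rests on signals near the floor. Against the lowest signals above background on the mES arrays it was 1.26-fold higher. With normexp background correction Trp63 gave 0.34 and did not pass (limma adjusted p = 0.0679). With 1 array left out, Krt17 passed in 6 of 6 fits (but not with position 4 only, adjusted p = 0.0686, nor without the feeder-low pair, 0.0985), Trp63 only without mES replicate 2, Grhl2 only without mES replicate 3 and Krt14 only without EpiSC replicate 2. Of 7 germ cell genes, among which Tfap2c acts, 6 were tested, 4 were lower and 0 higher (0 at an unadjusted p under 0.05), with a median of -4.29. Dppa3 gave -8.54 ± 1.02 (adjusted p = 0.00306), Ddx4 -8.13 ± 0.38 (adjusted p = 0.00012) and Dazl -5.63 ± 0.69 (adjusted p = 0.00322). No EpiSC array read Dppa3 or Ddx4 above background. Against the lowest signals above background on those arrays, Dppa3 was 158-fold and Ddx4 137-fold lower. Normexp background correction gave smaller log2 values, -4.84 for Dppa3 and -4.55 for Ddx4. Dazl read 19.6, 10.4 and 4.34 in EpiSC, above background on 1 of 3 arrays, so its size rests on signals near the floor. With normexp background correction it gave -3.98, and its other probe gave -8.32.

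The labels of the groups matched their markers. The 5 ES cell markers were all lower in EpiSC and the 5 EpiSC markers all higher. Of 3 pluripotency genes shared by both kinds 0 passed (limma, 1 lower at an unadjusted p under 0.05). Of 7 trophoblast markers 5 were tested and 2 were higher, Eomes and Krt7 (2.74 ± 0.62, adjusted p = 0.0227). With 1 array left out Krt7 passed only without EpiSC replicate 2 (adjusted p = 0.00421). The median signal per array was 72.4 to 120, 66.3% to 75.4% of probes were well above background, and 0 spots were saturated. Having 3 arrays per group limits the precision.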

How the data were processed

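RNA of 6 cultures was labelled with Cy3 and hybridised to one-colour Agilent arrays, per the labels' protocols. Per the file headers, the deposited intensity values came from Agilent Feature Extraction 9.1.3.1. The processed signal used here is linear and corrected within each array for trend and background, but not scaled between arrays. The authors' value table, also intensity, was that signal rounded (largest log2 gap 0.00716), linear, uncentred and not a ratio. Its column medians were 78.9, 84.9, 68.7, 117, 80.25 and 82.95 (mES, then EpiSC replicates 1 to 3). There were 0 per-sample columns left unused. For the probes, no genome build was named in the labels or headers.

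Control spots and outlier spots (12 to 24 per array) were left out, spots of a probe were averaged, and each array's 75th percentile of log2 signal was subtracted. Of 41174 probes, 22951 (55.7%) took their name through a RefSeq accession and the others kept the array's name. A probe entered if all arrays of mES, of EpiSC or of both read it well above background and each group missed at most 1 value. The brightest entering probe stood for its gene. limma 3.58.1 in R 4.3.3 tested the groups (lmFit, eBayes, 4 residual and 2.47 prior degrees of freedom, no covariate, two-sided, Benjamini-Hochberg over all genes), after a test on simulated data. Errors are its standard errors, and intervals are 95%. Where no array of a group read a gene above background, the fold is a bound against the higher of its own signal and the array's lowest signal above background. Such a bound covers only the dim signal.

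The regulators and all lists were chosen with earlier results of these data known, and some genes stand in more than 1 list. The lists were families of the regulators, Hippo pathway and TEAD partners, TEAD-YAP targets, other trophectoderm, later trophoblast, mesoderm, surface ectoderm and germ cell genes, and markers of feeder fibroblasts, ES cells, EpiSC, pluripotent cells of both kinds and trophoblast. Named are all regulators, up to 3 genes per list and direction with the largest changes past the threshold, any gene of a list of 8 or fewer, and the 2 genes most like each regulator. Sav1, Yap1, Wwtr1, Acta2, Prl3b1, Prl8a9, Dlx3, Synb, Ctsq and Ctsj were named outside that rule, after their values were seen. Alternatives were median and quantile scaling, normexp (offset 50), other filters and probe rules, a variance trend, the EpiSC-7 passages averaged, slide and position blocks, the value table, and each array left out. Floored signals and leaving out the pair of arrays low in feeder markers were chosen after seeing the data.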

Additional observations from a re-analysis of the deposited data

How the results depend on the processing

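With any 1 array left out, the count of regulators lower in EpiSC ran from 2 to 3 and that of regulators higher from 0 to 1. The higher count was 1 without mES replicate 2 (Elf5), without EpiSC replicate 2 (Gata3), with the slide as a random block (Elf5) and with the feeder-low pair, mES replicate 2 and EpiSC replicate 3, left out (Elf5). The fitted slide correlation was -0.68, which lowers the errors of a group difference, so calls gained there are no support. The lower count was 2 or 3 in every alternative, and the call lost was Tead4's except with the probes above background on all 6 arrays, where Esx1 did not enter. Tead4 missed the threshold with median scaling (adjusted p = 0.0637), quantile scaling (0.0575), normexp (0.0556), the EpiSC-7 passages averaged (0.0806), position 4 only (0.141), without the fibroblast-low arrays (0.16), and in 5 of the 6 fits without an array (adjusted p up to 0.096). The direction turned for Tfap2a with median scaling (0.08), quantile scaling (0.03), normexp (0.02), position 4 only (0.09), without mES replicate 3 (0.04), without EpiSC replicate 1 (0.01) and without EpiSC replicate 3 (0.03), for Cdx2 at position 4 only (-0.05) and without mES replicate 3 (-0.01), and for Tfap2e with quantile scaling (0.17) and normexp (0.15). It also turned for Tead3 with the slide block (-0.16), without mES replicate 2 (-0.15), without EpiSC replicate 1 (-0.07) and without the fibroblast-low arrays (-0.04), and for Gata2 without mES replicate 2 (-0.11) and without EpiSC replicate 2 (-1.07). With 1 array left out, Cdx2 ran from -0.01 to 1.03, Tfap2a from -0.09 to 0.04, Tead3 from -0.15 to 0.40 and Gata2 from -1.07 to 1.19. The cause was not tested. Over the 7 tested regulators and 45 other genes recomputed under the alternatives, 909 values kept direction and side of the threshold, 139 no longer passed and 13 newly passed.

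Median scaling moved the median of all genes from -0.11 to -0.01, and calls over all genes then were 2679 higher and 2397 lower against 2441 and 2995. Counts moved by over 1.5 times with no filter on dim probes (6118 lower), the slide block (4985 and 6800), position 4 only (1210 and 1476), the fibroblast-low arrays out (830 and 718), without EpiSC replicate 1 (1460 and 1827), without EpiSC replicate 3 (1379 and 1566) and without mES replicates 1 and 2 in turn (1894 and 1638 lower). No paired analysis was possible because the labels name different lines in each group and pair no mES array with an EpiSC array. The labels give no replicate numbers, and those used here are names in accession order. Dim signals limit Cdx2, Elf5, Hand1, the mES side of Gata3 and the EpiSC side of Esx1. Outside the regulators they limit, among others, the EpiSC side of Rhox6 and Dazl and the mES side of Vgll4 and Ankrd1.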
